A study of Mus musculus with 8 samples.

Results

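Chromatin accessibility was compared between LSK+ and LSK- bone marrow cells of wild type (WT) mice, using 4 of the 8 ATAC-seq libraries of the series. ATAC-seq uses the Tn5 transposase to place sequencing adapters in open DNA, so a peak marks a stretch that the enzyme could reach. Both cell types were lineage-negative (without surface CD11b, Gr-1, CD3e, B220, CD8a, CD4 and TER-119) and c-KIT-positive, and they were separated by SCA-1, which LSK+ cells carry and LSK- cells lack. Each group held 2 libraries of about 10000 cells from female mice aged 4.5 months on a mixed 129Sv4/Jae x B6 background. The labels call these mice WT, and whether they carried the floxed Xist allele or the Vav-iCre transgene is not given in the sources used here. The other 4 libraries came from XistΔ/Δ mice, in which Vav-iCre, a Cre driven by the blood-specific Vav1 promoter, removed both copies of Xist, and they served here only as libraries on which no WT region had been chosen.

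LSK+ cells contain the hematopoietic stem cells and the multipotent progenitors. LSK- c-KIT+ cells contain the committed myeloid progenitors, which give rise to granulocytes, monocytes, megakaryocytes and red cells. Much of the DNA that differs in accessibility between blood cell stages lies away from promoters, in elements that bind lineage factors such as GATA1 and KLF1 in red cell and megakaryocyte precursors, PU.1 and the C/EBP factors in myeloid cells, and RUNX1, ERG and other ETS factors in stem cells.

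The WT lists held 61952 and 29134 autosomal peaks in LSK+ replicates 1 and 2, and 69567 and 36749 in LSK- replicates 1 and 2. To compare lists of unequal length, the 29134 peaks with the highest −log10 p of each library were kept and called top peaks. Each was given a percentile within its library, 100 for the strongest. Overlapping top peaks were merged into 46421 regions on chromosomes 1 to 19. A region was called specific when both libraries of one cell type and neither of the other had a top peak there. This gave 3147 LSK+ specific regions, 6.78% of all regions, and 3906 LSK- specific regions, 8.41%. All 4 libraries had a top peak in 15572 regions, called shared, and the other 23796 had a mixed pattern. The presence of peaks chose the specific regions, so their number is a description and was not tested. In such bulk libraries, a larger share of cells with an open region and a more open region in each cell cannot be told apart.

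The background pileup of fragments, a measure of sequencing depth recovered from the lists, was 1.16 and 0.482 in the LSK+ libraries and 1.47 and 0.992 in the LSK- libraries. Replicates 1 and 2 were sequenced on different instruments with different read lengths, so the replicate number marks a sequencing batch that both cell types share. The weakest top peak had a −log10 p of 21.1 and 4.26 in LSK+ replicates 1 and 2, while the LSK- values were 23.5 and 10.2. The strongest peak left out had the same −log10 p to 3 digits in the 3 libraries with peaks beyond that number, and LSK+ replicate 2 had none beyond it. Libraries of one cell type had more regions in common than libraries of one replicate number: 61.1% of the regions of either LSK+ library and 61.7% of those of either LSK- library were in both, against 53.9% for the replicate 1 pair and 51.9% for the replicate 2 pair. Over the regions that 2 libraries had in common, however, percentiles were most alike between the replicate 2 libraries of the different cell types, with a Spearman rho of 0.836, against 0.747 between the LSK+ and 0.682 between the LSK- libraries. These are descriptions across regions, which share their library and its depth.

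**Figure D1:**
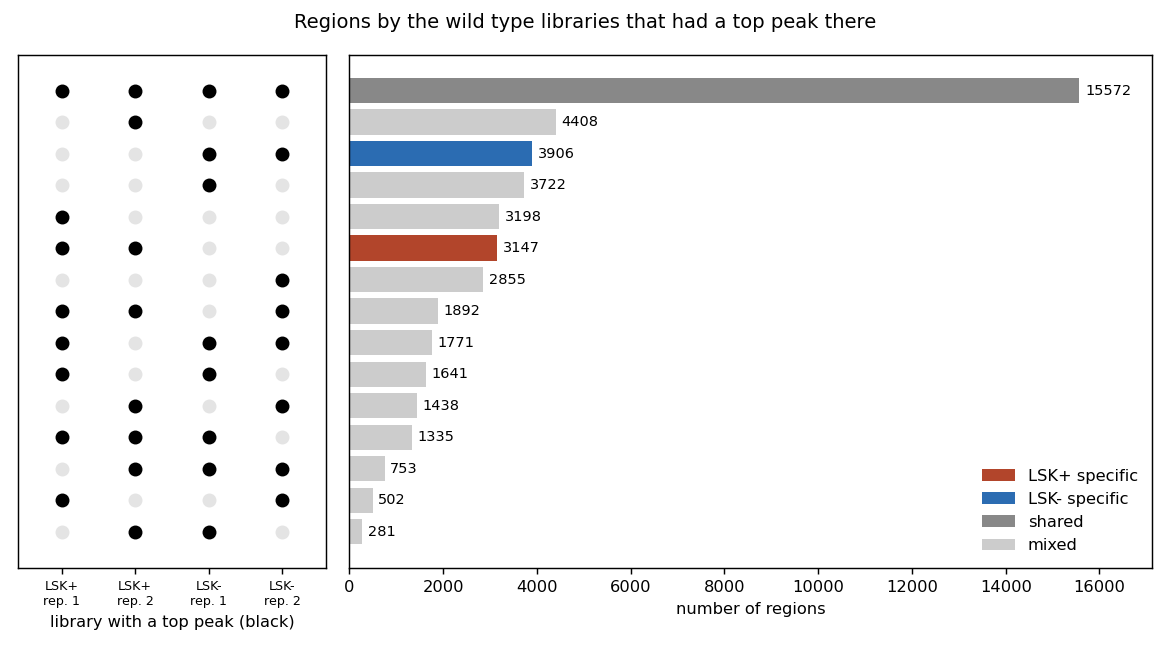
Number of regions (horizontal axis) for each combination of WT libraries with a top peak, black dots marking the libraries that had one. The 15572 shared regions outnumber every other combination, and the LSK+ specific (3147) and LSK- specific (3906) regions each exceed the 1641 and 1438 regions held only by both libraries of replicate number 1 or 2.

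A lower-ranked peak of the other cell type was often present at a specific region. Of the LSK+ specific regions, 678 (21.5%) had no deposited peak of any strength in either LSK- library, whereas 2405 had one below the top peaks in LSK- replicate 1 and 760 in LSK- replicate 2. Of the LSK- specific regions, 2397 (61.4%) had no deposited peak in either LSK+ library, and 1509 had one in LSK+ replicate 1. LSK+ replicate 2 could have none there, because its whole list was used. The LSK- lists were longer and deeper than the LSK+ list of the same replicate number, and the part of depth in these shares was not tested.

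Sequences of the regions are shown in sets, each chosen for a reason given with it. To show the strongest differences, the 3 distal LSK+ specific regions with the highest percentile in the weaker of their 2 libraries are printed first. Distal means that no transcription start site (TSS) of a protein-coding or lncRNA gene lay within 3 kb. Each sequence is 300 bases around the summit of the strongest peak, plus strand of the reference GRCm38 (the assembly named mm10), with matches to the GATA, PU.1, ETS, RUNX, C/EBP, HLF, KLF, AP-1, IRF and CTCF motifs defined below in capitals.
Tmem131l (chr3:83991985-83992284): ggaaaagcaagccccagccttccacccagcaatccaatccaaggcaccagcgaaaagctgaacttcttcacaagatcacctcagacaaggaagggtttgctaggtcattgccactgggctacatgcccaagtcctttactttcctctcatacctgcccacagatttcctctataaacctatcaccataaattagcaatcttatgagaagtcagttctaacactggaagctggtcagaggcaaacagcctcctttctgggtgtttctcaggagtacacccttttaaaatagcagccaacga
Gtf2i (chr5:134236745-134237044): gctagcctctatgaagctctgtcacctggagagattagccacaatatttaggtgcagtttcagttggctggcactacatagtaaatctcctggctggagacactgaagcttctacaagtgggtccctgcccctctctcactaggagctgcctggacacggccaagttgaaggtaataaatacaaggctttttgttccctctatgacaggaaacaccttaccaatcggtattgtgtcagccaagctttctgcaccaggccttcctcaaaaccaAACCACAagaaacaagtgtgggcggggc
Ext2 (chr2:93791518-93791817): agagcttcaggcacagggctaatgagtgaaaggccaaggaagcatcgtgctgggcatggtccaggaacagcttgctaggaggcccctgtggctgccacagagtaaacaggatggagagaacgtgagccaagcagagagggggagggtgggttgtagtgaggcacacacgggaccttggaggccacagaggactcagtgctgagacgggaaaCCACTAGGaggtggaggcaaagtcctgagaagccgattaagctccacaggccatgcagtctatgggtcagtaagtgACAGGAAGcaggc
The regions lay in an intron of Tmem131l, 520 bases past the 3′ end of Gtf2i, which encodes a general transcription factor, and in an intron of Ext2, a heparan sulfate polymerase. The Tmem131l window held none of these motifs, the Gtf2i window a RUNX match, and the Ext2 window a CTCF and an ETS match.

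The pair of highest-ranked LSK+ specific regions at genes of the stem and early progenitor list, leaving out windows that touch an annotated UTR, shows elements at known stem cell genes.
Erg (chr16:95452494-95452793): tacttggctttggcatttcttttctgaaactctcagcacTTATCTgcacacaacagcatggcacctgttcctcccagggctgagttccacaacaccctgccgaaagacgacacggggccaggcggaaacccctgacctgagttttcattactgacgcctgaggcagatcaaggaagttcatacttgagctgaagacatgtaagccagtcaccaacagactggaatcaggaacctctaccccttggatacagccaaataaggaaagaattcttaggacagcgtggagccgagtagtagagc
Mllt3 (chr4:87823380-87823679): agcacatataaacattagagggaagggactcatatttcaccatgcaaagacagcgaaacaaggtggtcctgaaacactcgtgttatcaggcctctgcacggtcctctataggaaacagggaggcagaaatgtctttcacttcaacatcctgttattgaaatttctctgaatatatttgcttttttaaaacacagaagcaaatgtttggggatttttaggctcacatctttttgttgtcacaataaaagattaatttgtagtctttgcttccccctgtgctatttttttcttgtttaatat
Both were intronic. Erg encodes an ETS factor that stem cells need, and Mllt3 a regulator of stem cell maintenance. The Erg window held a GATA match and the Mllt3 window none of the motifs.

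A pair of highest-ranked distal LSK- specific regions shows the strongest differences in the other direction.
Hagh (chr17:24859050-24859349): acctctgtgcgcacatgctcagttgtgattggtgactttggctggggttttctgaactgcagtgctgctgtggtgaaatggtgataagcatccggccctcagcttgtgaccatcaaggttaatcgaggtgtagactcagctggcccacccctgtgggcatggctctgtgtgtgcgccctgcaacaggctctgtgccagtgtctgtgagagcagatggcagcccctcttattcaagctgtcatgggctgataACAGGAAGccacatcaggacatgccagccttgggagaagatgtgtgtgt
Tbk1 (chr10:121569055-121569354): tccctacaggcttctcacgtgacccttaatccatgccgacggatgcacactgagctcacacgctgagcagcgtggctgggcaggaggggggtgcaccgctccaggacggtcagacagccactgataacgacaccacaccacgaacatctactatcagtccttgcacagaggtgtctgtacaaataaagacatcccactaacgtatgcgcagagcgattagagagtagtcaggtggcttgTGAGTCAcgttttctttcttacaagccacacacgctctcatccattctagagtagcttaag
Both were intronic, in Hagh, a glyoxalase, and in Tbk1, a kinase of innate immune signalling. The Hagh window held an ETS match and the Tbk1 window an AP-1 match. Only the letters AGATAA counted as a GATA match in this report, and TGATAA, which both windows hold, did not.

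A high-ranked LSK- specific region at a gene of the erythroid list shows an element at a known red cell gene.
Zfpm1 (chr8:122321650-122321949): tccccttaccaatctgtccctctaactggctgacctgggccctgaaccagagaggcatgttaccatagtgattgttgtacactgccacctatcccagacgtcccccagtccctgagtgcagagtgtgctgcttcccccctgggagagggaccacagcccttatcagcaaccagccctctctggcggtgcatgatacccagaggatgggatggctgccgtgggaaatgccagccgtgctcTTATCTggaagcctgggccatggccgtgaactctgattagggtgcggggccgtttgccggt
Zfpm1 encodes FOG-1, the cofactor of GATA1. The Zfpm1 window held a GATA match on the minus strand.

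A pair of high-ranked TSS-proximal LSK- specific regions with a GATA match is shown because this motif separated the cell types most. The Tmcc2 region, which ranked between them and also held a GATA match, is not printed.
Alad (chr4:62516693-62516992): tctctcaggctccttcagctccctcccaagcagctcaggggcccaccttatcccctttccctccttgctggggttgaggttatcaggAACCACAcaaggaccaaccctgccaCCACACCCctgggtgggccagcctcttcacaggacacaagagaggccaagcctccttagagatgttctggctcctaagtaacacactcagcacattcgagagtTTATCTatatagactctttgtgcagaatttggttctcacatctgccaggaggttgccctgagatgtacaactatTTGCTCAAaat
Sema4d (chr13:51737920-51738219): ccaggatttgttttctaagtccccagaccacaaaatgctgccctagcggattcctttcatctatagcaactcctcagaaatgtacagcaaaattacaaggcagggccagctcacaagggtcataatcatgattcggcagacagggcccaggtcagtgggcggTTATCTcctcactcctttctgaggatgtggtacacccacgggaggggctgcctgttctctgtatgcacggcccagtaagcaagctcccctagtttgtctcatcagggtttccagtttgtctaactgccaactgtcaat
Alad encodes an early enzyme of heme synthesis, and its window held RUNX, KLF, GATA and C/EBP matches within 300 bases. The Sema4d window held a GATA match. The sets of the stem list, the erythroid list and the GATA match were chosen after their values were seen.

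Specific regions of both cell types lay mostly away from TSSs. A TSS lay within 3 kb of 554 LSK+ specific regions, 17.6% (Wilson 95% interval 16.3 to 18.97), and of 561 LSK- specific regions, 14.4% (13.3 to 15.5). Among all regions the share was 35.8%, among mixed regions 25.3%, and among shared regions 60.9% (60.1 to 61.7). These intervals cover counting error only. A low share was not particular to the specific regions. Regions held only by both replicate 1 libraries had 14.0%, and those held only by both replicate 2 libraries 68.4%. Regions of a single library had 12.5% and 32.9% for LSK+ replicates 1 and 2, and 13.3% and 19.8% for LSK- replicates 1 and 2. Of the distal specific regions, introns held 51.8% for LSK+ and 55.3% for LSK-, exons 9.02% and 8.25%, and intergenic DNA 39.1% and 36.4%. The distal LSK+ specific regions had a median distance to a TSS of 23.9 kb and the LSK- specific ones of 18.9 kb, against 20.5 kb for all distal regions. More than 50 kb from any TSS lay 26.1% of the distal LSK+ and 18.95% of the distal LSK- specific regions. The order of the TSS-proximal shares of the specific sets turned with 14567 top peaks per list, at 20.1% for LSK+ and 22.3% for LSK-, and without LSK+ replicate 2, at 15.1% and 18.3%.

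Specific regions were of lower rank than shared ones. The lower of the percentiles in the 2 libraries had a median of 22.1 (interquartile range 10.5 to 36.7) over the LSK+ specific and of 25.2 (11.9 to 43.7) over the LSK- specific regions, against 53.5 for the lowest of 4 over the shared regions. It reached 50 in 339 LSK+ (10.8%) and 693 LSK- specific regions (17.7%). The highest value was 83.6, at Tmem131l in LSK+, and 85.0, at Alad in LSK-. The median summit pileup was 36 and 12 fragments in LSK+ replicates 1 and 2 at the LSK+ specific regions, and 49 and 21 fragments in LSK- replicates 1 and 2 at the LSK- specific regions.

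Over all top peaks of a library, the cell types overlapped in place, width and enrichment when the replicate number was left out of account. The summit lay within 3 kb of a TSS in 41.6% and 48.1% of top peaks in LSK+ replicates 1 and 2 and in 39.8% and 45.8% in LSK- replicates 1 and 2. The groups overlapped (44.9% ± 4.61 against 42.8% ± 4.26, SD, n = 2 each, two-sided exact permutation test, p = 0.667, adjusted over 3 measures p = 1). Median peak width was 620 and 426 bp in LSK+ and 556 and 365 bp in LSK-, and median fold enrichment was 11.9 and 8.78 in LSK+ and 11.4 and 10.3 in LSK-. Each of these measures also overlapped between the groups (exact permutation p = 0.667 and 1). With 2 libraries against 2 the smallest possible p is 0.33, so no such test could pass 0.05. Within each replicate number, LSK+ had the higher TSS-proximal share and the wider peaks. Fold enrichment was higher in LSK+ in replicate 1 and in LSK- in replicate 2. These directions within a replicate number were not tested. The labels do not say that replicates came from separate animals.

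The specific regions differed in the motifs they held. Motifs were searched on both strands in the 300 bases around the summit, and the sequence had no part in choosing the regions. The GATA motif (AGATAA) was present in 1717 of 3345 distal LSK- specific regions, 51.3% (Wilson 95% interval 49.6 to 53.0), and in 271 of 2593 distal LSK+ specific regions, 10.5% (9.33 to 11.7). All distal regions held it at 22.2%, and distal shared regions at 18.1%. The share was thus 4.91-fold higher in the LSK- than in the LSK+ specific set. The GC content of the windows was close, with a median of 49.3% in the LSK+ and 48.0% in the LSK- specific distal set. TSS-proximal regions showed the same order, with the GATA motif in 42.4% of 561 LSK- specific regions, 7.04% of 554 LSK+ specific regions and 8.21% of all TSS-proximal regions.

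The KLF motif (CCACACCC), bound by KLF1 and its relatives, was in 7.06% of distal LSK- specific, 2.01% of distal LSK+ specific and 4.02% of all distal regions. The MYB motif (AACNGNC) was in 44.5%, 37.0% and 38.8%, and the C/EBP motif (TTGCNNAA) in 15.2%, 12.4% and 14.4% of the same sets. These 3 motifs had the higher share on the LSK- side, as did the MEIS motif and the E-box given below. The MEIS gap was wider than that of C/EBP.

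Among distal regions, ETS-type motifs had the opposite order. The ETS motif (ACAGGAAG) was in 14.0% of distal LSK+ specific, 6.67% of distal LSK- specific and 9.85% of all distal regions. The PU.1 motif (GAGGAAGT) was in 11.2%, 6.19% and 10.0%, and distal shared regions held it at 12.9%. The IRF motif (GAAANNGAA) was in 14.2%, 8.79% and 11.5%, and the AP-1 motif (TGANTCA) in 15.3%, 11.4% and 12.9%. At TSS-proximal LSK+ and LSK- specific regions, PU.1 stood at 5.78% and 6.77% and AP-1 at 10.3% and 10.2%. ETS, at 8.30% and 5.70%, and IRF, at 11.7% and 5.88%, kept the distal order there. The PU.1 and ETS letters differ, but they mark one family of factors. The HLF motif (PAR bZIP, TTACNTAA), named for a stem cell factor, was rare, at 3.12% of distal LSK+ and 2.18% of distal LSK- specific regions.

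The order was mixed among the other motifs. The MEIS motif (TGACAG) was in 23.5% of distal LSK+ and 27.2% of distal LSK- specific regions, the E-box (CAGNTG) in 62.3% and 63.5%, the RUNX motif (TGTGGTT) in 17.5% and 16.6%, and the CTCF motif (CCACNAGG) in 7.98% and 6.58%. Shared distal regions held the CTCF motif at 10.5%. A match to a few letters is a description of the sequence and not evidence that a factor was bound.

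**Figure D2:**
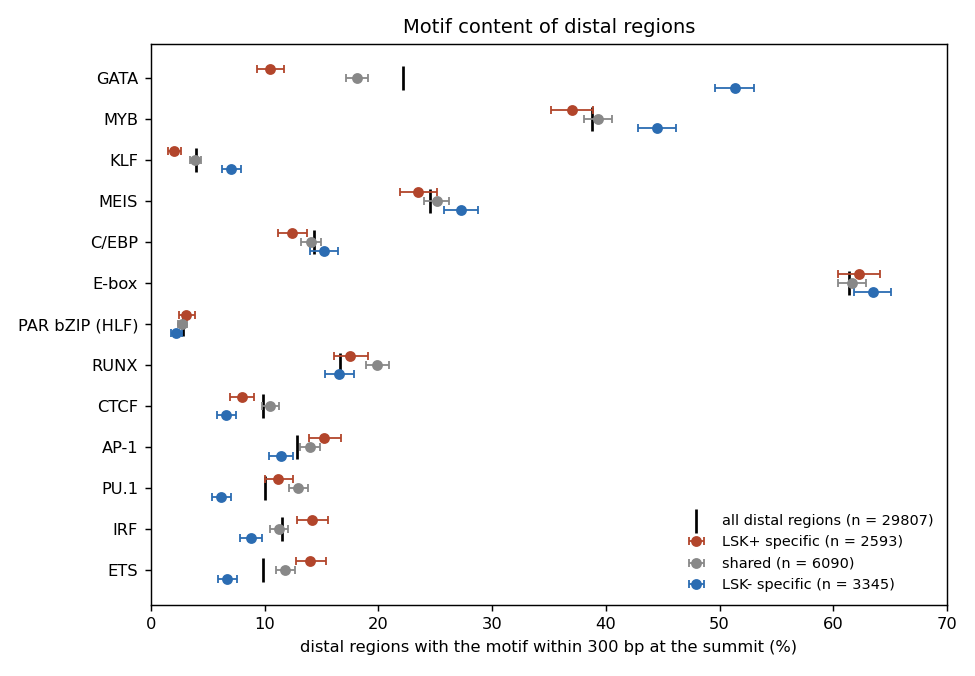
Share of distal regions (horizontal axis, %) with each motif in the 300 bases at the summit, for LSK+ specific (red), LSK- specific (blue) and shared (grey) regions, with Wilson 95% intervals, and for all distal regions (black bars). The GATA motif stands at 51.3% in LSK- specific and 10.5% in LSK+ specific regions, a wider gap than for any other of the 13 motifs.

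The same motif was measured in each library over all its distal top peaks, specific or not. The GATA motif was in 14.7% and 14.3% of distal top peaks in LSK+ replicates 1 and 2 and in 29.3% and 24.9% in LSK- replicates 1 and 2. The groups did not overlap (14.5% ± 0.268 against 27.1% ± 3.11, SD, n = 2 each, exact permutation p = 0.33, the smallest possible, and 0.481 adjusted over 13 motifs). The XistΔ/Δ libraries gave 15.0% and 14.3% for LSK+, and LSK- gave 33.6% and 21.1%. The LSK- library thus had the higher GATA share within each replicate number of each genotype. The groups did not overlap for 9 of the 13 motifs, and none of the 13 could pass a test at this sample size. The GATA gap was also present within a replicate number: among distal regions with a top peak in one cell type only, 44.1% of LSK- and 10.5% of LSK+ regions held the motif within replicate 1, and 33.6% and 12.6% within replicate 2.

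The 8 highest-ranked TSS-proximal LSK- specific regions included regions at Alad and Car1. The Alad region (chr4:62516641-62517188, in an intron 2706 bases from the nearest TSS) had percentiles of 91.3 and 85.0 in LSK- replicates 1 and 2, with 208 and 130 fragments at the summit. Neither LSK+ library had a deposited peak there. The region over a TSS of Car1, which encodes the erythroid carbonic anhydrase 1 (chr3:14808201-14808847), had percentiles of 88.2 and 82.6 with 124 and 81 fragments. It too had no LSK+ peak of any strength.

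The intronic region of Samd14 (chr11:95011945-95012573), a gene with a role in erythroid stem cell factor signalling, had percentiles of 85.1 and 79.3 in LSK- and no deposited LSK+ peak. The Tmcc2 region, over a TSS (chr1:132367667-132368335), had 97.0 and 84.1, and LSK+ replicate 1 had a peak there below its top peaks. Sema4d, which encodes a semaphorin, had 89.2 and 80.6. Znfx1 had 75.9 and 76.6, and Hdac7, a class IIa histone deacetylase, had 77.4 and 74.0, with no deposited LSK+ peak at either. Of these 8 regions, the GATA motif was absent only at Car1, whose window held a KLF and an ETS match.

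The 8 highest TSS-proximal LSK+ specific regions had percentiles that overlapped with these. The lncRNA 5830428M24Rik had 87.5 and 78.0 in LSK+ replicates 1 and 2, with 103 and 41 fragments, and both LSK- libraries had a weaker peak there. The region in Fgfr1, a fibroblast growth factor receptor (chr8:25535281-25535867), had 91.2 and 75.7, again with weaker peaks in both LSK- libraries. Hoxa3, a homeobox gene of the Hoxa cluster (chr6:52212805-52213573), had 70.9 and 62.8 with 106 and 40 fragments. Layn, which encodes a hyaluronan receptor, had 70.5 and 67.5, and Pacsin2, an endocytosis adaptor, had 66.1 and 64.7. LSK- replicate 1 had a deposited peak below its top peaks at all 8 of them.

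Among distal regions, the LSK+ specific region in an intron of Tmem131l (chr3:83991858-83992577) had percentiles of 83.6 and 83.6 with 91 and 47 fragments. The region in an intron of Dot1l, which encodes the histone H3K79 methyltransferase (chr10:80792180-80793108), had 81.7 and 79.6. Ext2 had 87.8 and 79.8, Larp4b 79.6 and 82.7, and Erc2 91.6 and 78.9. The LSK- specific region in Hagh (chr17:24858820-24859485) had 90.9 and 84.6 in LSK- with 117 and 81 fragments and no LSK+ peak of any strength. Dapp1, an adaptor of phosphoinositide signalling, had 95.5 and 79.9 with 192 and 87 fragments, and Ak7, an adenylate kinase, had 96.0 and 82.2. Of these 8 distal LSK- specific regions, 6 held the GATA motif, and of the 8 distal LSK+ specific regions none did.

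**Figure D3:**
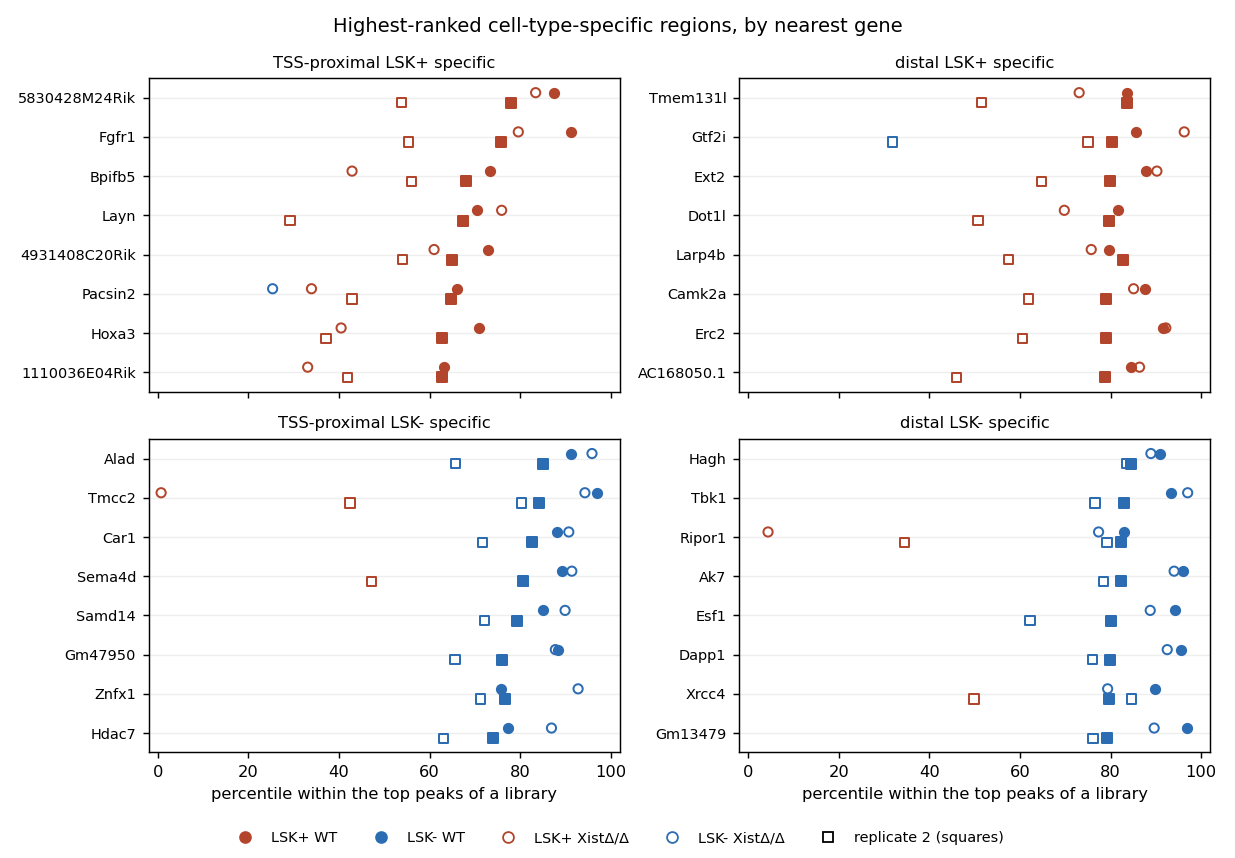
Percentile within the top peaks of each library (horizontal axis) for the 8 highest-ranked TSS-proximal and distal specific regions of each cell type, by nearest gene; filled symbols are WT, open symbols XistΔ/Δ, circles replicate 1 and squares replicate 2. A missing symbol means no top peak. At Alad, Car1 and Hagh no LSK+ library of either genotype has a symbol.

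The XistΔ/Δ libraries, in which the regions had not been chosen, showed the same direction at most regions. Of the LSK+ specific regions, the XistΔ/Δ LSK+ libraries had a top peak in 78.0% and 58.5%, and the XistΔ/Δ LSK- libraries in 5.24% and 10.6% (means 68.2% ± 13.8 and 7.93% ± 3.80, SD, n = 2 each, exact permutation p = 0.33, the smallest possible). Of the LSK- specific regions, they had 12.6% and 21.5% in LSK+ and 87.7% and 67.0% in LSK- (17.1% ± 6.30 and 77.4% ± 14.6, exact permutation p = 0.33). More XistΔ/Δ LSK+ than LSK- libraries had a top peak at 2497 of the LSK+ specific regions (79.3%), fewer at 48 (1.53%), and the numbers were equal at 602. For the LSK- specific regions, 3220 (82.4%) had more LSK- than LSK+ libraries and 116 (2.97%) had fewer. Among shared regions the numbers were equal at 90.0%.

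Genes of the lineage lists were then examined, each region being assigned to the closest TSS within 3 kb or else to the closest gene body. The lists held 90 genes chosen for their known roles, at a point when earlier results of these data were known. The counts below are to be read against 6.78% LSK+ specific and 8.41% LSK- specific among all regions, and no list was tested.

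The erythroid list had the largest LSK- share. Of 42 regions at its genes, 11 were LSK- specific (26.2%), at 9 genes, and 5 were LSK+ specific (11.9%), at 4 genes. A TSS of Ank1, which encodes the red cell ankyrin (chr8:23034803-23035385), had percentiles of 41.0 and 66.3 in LSK- replicates 1 and 2, and an intronic Ank1 region had 38.5 and 54.8. A TSS of Klf1, the erythroid transcription factor (chr8:84901055-84902013), had 26.7 and 28.8 in LSK-. Slc4a1 (band 3), Tspo2, Rhd and Cldn13 each had 1 LSK- specific region.

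The erythroid list was not uniform. Zfpm1 had 2 LSK- specific regions, with percentiles of 58.3 and 65.6 at the printed one, and also 2 LSK+ specific regions, of which the stronger (chr8:122331090-122331571) had 63.6 and 49.6 in LSK+ and a PU.1 match. Ank1 also had an LSK+ specific region, at 27.3 and 33.4. Car2 had only an LSK+ specific region, at 19.1 and 13.4.

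The stem and early progenitor list had 91 regions, of which 9 were LSK+ specific (9.89%), at 6 genes, and 4 LSK- specific (4.40%), at 2 genes. Erg had 2 LSK+ specific regions, an intronic one (chr16:95452404-95452751) at 34.9 and 54.7 in LSK+ replicates 1 and 2 and one over a TSS at 42.2 and 17.2. Mecom, which encodes the stem cell factor EVI1, had 2 in introns, at 25.7 and 43.9 and at 38.6 and 14.2. Prdm16, a related factor, had 2, at 3.18 and 29.8 and at 16.9 and 34.2. Meis1, a homeobox cofactor, had 1 intergenic region at 22.9 and 54.9. Each of these was below the middle of the list in at least 1 library.

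Mllt3 went the other way. It had 3 LSK- specific regions, of which the one over a TSS (chr4:87806098-87806986) had percentiles of 85.6 and 47.8 in LSK-, beside the LSK+ specific intron printed above, at 26.3 and 34.1. The other LSK- specific region of the list was in Mecom, with 38.3 and 0.470.

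The lymphoid list had 39 regions, 5 of them LSK+ specific (12.8%) and 4 LSK- specific (10.3%). Bcl11a, a transcription factor of lymphoid and fetal globin control, had 2 of each in its introns. The strongest LSK+ specific one (chr11:24139187-24140070) had 70.5 and 57.8 in LSK+, and the strongest LSK- specific one, which held a GATA and a KLF match (chr11:24135897-24136604), had 89.0 and 62.6 in LSK-. Ikzf1, which encodes Ikaros, had 2 LSK- specific introns, at 62.5 and 58.6 and at 21.7 and 44.4. Dntt, the terminal transferase of early lymphoid cells, had an LSK+ specific intron at 18.1 and 20.9.

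The granulocyte and monocyte list had few specific regions, with 1 of 24 in each direction (4.17% each). These were an intron of Irf8, the monocyte and dendritic cell factor, at 6.42 and 22.8 in LSK+, and a region near Fcnb at 35.98 and 4.73 in LSK-. The megakaryocyte list had 2 LSK+ and 3 LSK- specific regions of 18. At Vwf, the von Willebrand factor gene, 1 intron was LSK+ specific (78.2 and 46.0) and 2 regions were LSK- specific (43.9 and 30.6, and 57.2 and 35.8). Pf4, platelet factor 4, had an LSK- specific region at 76.8 and 44.6, and Gp9 an LSK+ specific TSS at 52.9 and 40.3. The mast cell and basophil list had no LSK+ specific region and 3 LSK- specific ones of 19 (15.8%), at Il1rl1 (55.4 and 28.1), Hdc (35.4 and 22.1) and Gzmb (10.8 and 22.6).

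Genes of mature lineage-positive and stromal cells, which the sort removes, had 5 LSK+ specific (14.3%) and 1 LSK- specific (2.86%) of 35 regions. The LSK+ specific ones were near Ebf1 and in Pax5, both B cell factors, at Ltf and Lyz2, both myeloid granule genes, and near Col1a1, with a lower percentile of 3.15 to 32.8. The part of other cell types in these values was not tested.

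**Figure D4:**
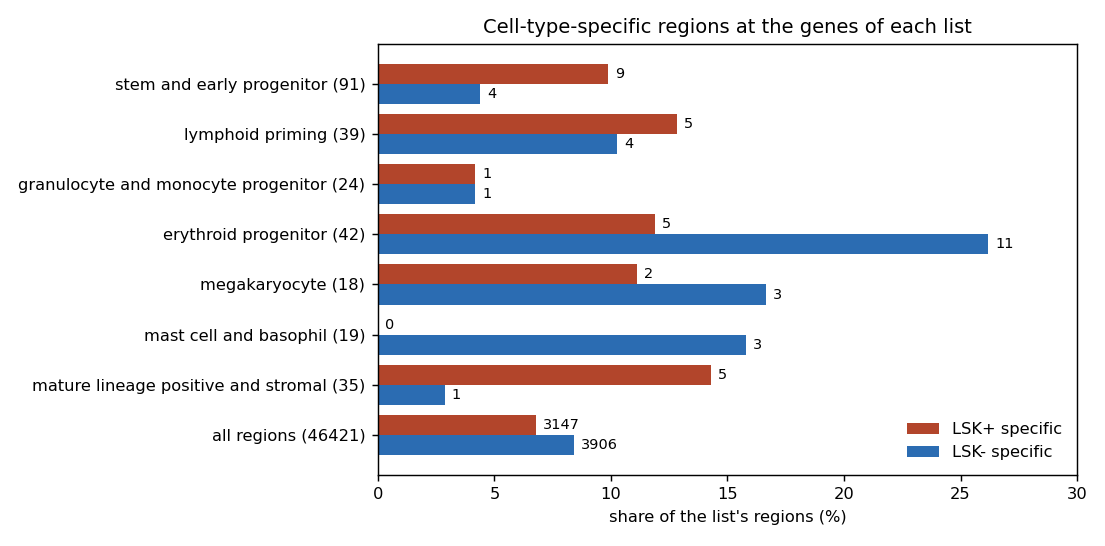
Share of the regions at the genes of each list (horizontal axis, %) that were LSK+ specific (red) or LSK- specific (blue), with the number of regions beside each bar and the total in parentheses. The erythroid list stands at 26.2% LSK- specific, against 8.41% over all regions.

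The markers by which the sorted cells are known were checked one by one. Ly6a, which encodes SCA-1 itself, had no region among the top peaks; LSK+ replicate 1 alone had a deposited peak within 3 kb of its TSS, at percentile 10.8 of its whole list. Hlf had 1 shared region and no specific one. A region over a TSS of Hlf (chr11:90390626-90391072) had percentiles of 11.1 and 76.2 in LSK+ and 84.1 in LSK- replicate 2, with no top peak in LSK- replicate 1, so it did not separate the cell types. Mpo, the myeloperoxidase gene of granulocyte precursors, had 1 region, at its TSS, with top peaks in the replicate 2 libraries only, at 29.9 in LSK+ and 54.9 in LSK-. Below their top peaks, the replicate 1 libraries had deposited promoter peaks of Mpo, at whole-list percentiles of 23.3 in LSK+ and 52.8 in LSK-. Cebpe, the factor of late granulocyte precursors, had 2 shared regions, of which one (chr14:54713997-54715051) had 11.4 and 20.4 in LSK+ and 37.3 and 31.4 in LSK-. The groups overlapped at the other, stronger one (chr14:54705557-54706518), with 87.4 and 75.9 in LSK+ and 95.1 and 86.6 in LSK-. Neither was called in the test of shared regions below. Gata1 lies on the X chromosome, outside the regions compared. Of the markers with autosomal regions, Meis1 had only LSK+ specific, Klf1 only LSK- specific and Mecom both kinds of regions. Klf1 also had a shared region 1007 bases from a TSS, at 79.0 and 89.9 in LSK+ and 48.6 and 85.3 in LSK-, where the groups overlapped.

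In shared regions, the question was whether the rank of the peak differed. The moderated test of limma on the percentiles, with Benjamini-Hochberg adjustment, called 0 of 15572 regions in either direction (0%), with 928 regions (5.96%) at an unadjusted p under 0.05 and a smallest adjusted p of 0.782. With the replicate number as a block, which compares the cell types within each sequencing batch, limma called 509 regions higher in LSK+ (3.27%) and 261 higher in LSK- (1.68%). So few libraries leave this fit little of a region's own spread to test against. Its calls therefore rest largely on variance pooled across regions. A call does not by itself show a similar difference in both replicate numbers. The percentiles of the cell types did not overlap in 2969 regions higher in LSK+ (19.1%) and 2341 higher in LSK- (15.0%). These counts of regions that did not overlap are a description with no test.

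The regions called with the replicate block had some of the features of the specific regions. A TSS lay within 3 kb of 24.4% of those higher in LSK+ and 37.9% of those higher in LSK-, against 60.9% of all shared regions. Among the distal ones, the GATA motif was in 75 of 162 higher in LSK- (46.3%) and in 52 of 385 higher in LSK+ (13.5%), against 18.1% of all distal shared regions. The ETS motif was in 17.9% of those higher in LSK+ and 8.64% of those higher in LSK-.

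**Figure D5:**
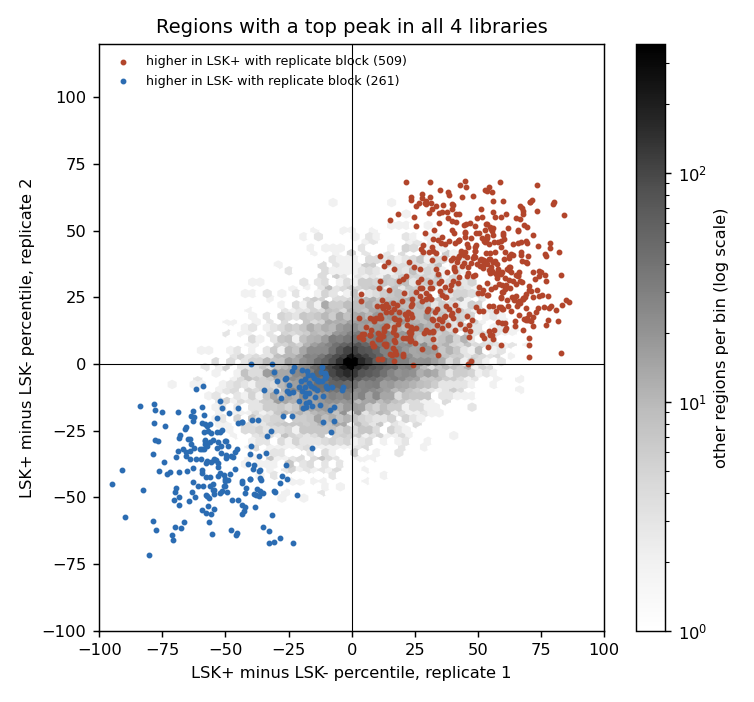
Difference in percentile between LSK+ and LSK- in replicate 1 (horizontal axis) and replicate 2 (vertical axis) for the 15572 shared regions. Red and blue points are the 509 and 261 regions called with the replicate block, and grey bins are the other regions on a log scale of their number.

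The largest rank differences in shared regions, among those whose groups did not overlap, were of about 65 to 76 percentile points. None of those named here passed limma's test without the block (adjusted p = 0.782 for each), and each passed it with the block. The region in an intron of Myct1, a stem cell gene (chr10:5603153-5604012), had percentiles of 81.6 and 81.2 in LSK+ replicates 1 and 2 and of 2.00 and 21.1 in LSK-. The difference was 69.9 points (SE 13.2 with the block). An intron of Mfng, a glycosyltransferase that modifies Notch receptors (chr15:78771776-78772863), had 87.5 and 87.4 in LSK+ and 3.37 and 31.5 in LSK-. Introns of Fmnl2, a formin, and Fyn, a Src family kinase, differed by 70.3 and 66.6 points, and the region nearest to C130026L21Rik by 70.4 points.

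In the other direction, the region near Cln8 (chr8:14879978-14880522) stood at percentiles 6.11 and 8.84 in LSK+, against 86.4 and 80.6 in LSK-. The region near Spry1, an inhibitor of growth factor signalling (chr3:37659552-37660236), had 2.44 and 12.8 in LSK+ and 92.3 and 70.2 in LSK-. Intronic regions of Glis1, Nrip1, a nuclear receptor corepressor, and Ptprm had LSK+ means of 14.6, 4.35 and 10.8, against LSK- means of 84.5, 71.9 and 76.5. A region of Slc17a4 within 3 kb of a TSS had means of 14.5 and 82.8.

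Shared regions of the lists were also called with the replicate block. Those higher in LSK+ were at Myct1 and Prdm16 (74.9 and 73.6 in LSK+, 18.03 and 31.6 in LSK-, limma adjusted p = 0.0147) in the stem list and at Csf1r, the M-CSF receptor, in the myeloid list (90.4 and 81.1 against 36.4 and 74.9, limma adjusted p = 0.0447). In the erythroid list, a region higher in LSK- was at Epor, the erythropoietin receptor (48.0 and 36.02 against 78.1 and 84.0, limma adjusted p = 0.0271). The median difference over the 21 shared regions of the stem list was 10.5 points and over the 12 of the erythroid list 1.84 points. It was 8.53 points for the granulocyte and monocyte list, 6.84 for the lymphoid list, 4.40 for the megakaryocyte list and 5.02 for the list of gated-out mature and stromal cells. All of these lay above the 0.773 points found over all shared regions. The Meis1 TSS region (chr11:19018463-19019477) had 93.8 and 89.6 in LSK+ and 81.2 and 81.1 in LSK- and did not pass the test (limma adjusted p = 0.0901 with the block).

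Specific regions were spread over all 19 autosomes. LSK- specific regions outnumbered LSK+ specific ones on 17 of them. The excess on the LSK- side turned under other settings, with 1421 LSK+ and 1398 LSK- specific regions for 14567 top peaks per list and 3041 and 2625 where a peak had to cover 50% of the region. Within a single replicate number, each cell type had a single list of the same length, so the counts were bound to be close. They were 8767 and 8677 within replicate 1 and 9360 and 9246 within replicate 2, and could not show an excess. The LSK+ share of the specific regions was 44.6% in all, and it ranged from 37.4% on chromosome 1 (188 of LSK+ and 315 of LSK-, Wilson 95% interval 33.3 to 41.7) to 51.5% on chromosome 19 (123 and 116, 45.2 to 57.7).

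Most genes with a specific region had one of one kind. Among protein-coding genes, 1439 had only LSK+ specific, 1980 only LSK- specific and 581 both kinds of regions. The last number was 28.8% of the genes with an LSK+ specific and 22.7% of those with an LSK- specific region. Of the genes with LSK- specific regions, 9 reached 5. Mgll, which encodes monoacylglycerol lipase and is 103.9 kb long, had 5 LSK- specific and 0 LSK+ specific regions assigned to it. Sox6, a repressor used in red cell maturation with a gene of 567.9 kb, had 5 LSK- and 2 LSK+ specific regions. Ltbp1, Nck2, Smyd3, Pag1, Cmip and Fgfr2 had 5 with 1 to 3 of the other kind. Gse1 led on both sides, with 5 LSK- and 4 LSK+ specific regions among 33 regions.

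No protein-coding gene had more than 4 LSK+ specific regions. Of the 10 named by the rule, Sorcs2, Dlg2, Ppp2r2b and Creb5 had 4 and no LSK- specific region, and Ttc28, Asap1, Macrod2 and Ghitm had 4 with 1 to 3 LSK- specific ones. Gm20388, an annotated gene of 4435 kb that spans its neighbours, also had 4. The lengths of these 10 genes ran from 15.2 kb at Ghitm to that value.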

How the data were processed

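ATAC-seq peak lists of 8 libraries were used, 2 for each of LSK+ and LSK- cells of WT and XistΔ/Δ mice. Per the labels and the study's methods, the authors trimmed reads with Trim Galore, aligned them to mm10 with Bowtie2 2.3.5.1, removed mitochondrial reads and those with a mapping quality under 30 with SAMtools 1.10, and called peaks in each library with MACS2 2.2.7.1 at q 0.01 on paired-end fragments. No control, duplicate removal or Tn5 shift was stated. The deposited lists give for each peak a fold enrichment (a ratio), a −log10 p and −log10 q value, a score and the summit offset. Counts per peak from DiffBind were not used here.

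Peaks were ranked within a library by −log10 p. The summit pileup and background of fragments were solved from fold and −log10 p and matched within 0.01 for 95.3% of peaks in LSK+ WT replicate 2 and 100% in the other WT libraries. They stand in for read depth, which was not used here. The GENCODE M21 basic set of GRCm38 gave the genes, and every last peak lay within its reference chromosome. Shared regions were tested with limma 3.58.1 (trend, no block in the main test) in R 4.3.3 at an adjusted p of 0.05, and library values by exact permutation with scipy 1.17.1. The limma step, the recovery of the pileup and the region classes were tested on simulated data. The replicate number was taken as a pairing because the study's sequencing information gives each number its own instrument and read length. Deviations of same-numbered libraries from their cell type means had a Pearson r of 0.524 over the 15572 shared regions.

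The members, gene lists and motifs were chosen with earlier results of these data known. Genes were named by rule: the markers and lists, the 10 protein-coding genes with most specific regions per cell type, the 8 highest-ranked TSS-proximal and distal specific regions per cell type, and the 8 shared regions with the largest difference per direction, those called or, with 0 called, those whose groups did not overlap. Alternatives were ranking by fold, other numbers of peaks, a −log10 q of at least 5, 50% cover, a TSS within 1 kb, leaving out each library, single replicate numbers, the block, log2 fold enrichment (the log2 of the deposited ratio) and a mean percentile of at least 50. Some named genes and sequences are not reported here.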

Additional observations from a re-analysis of the deposited data

How the results depend on the processing

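The lists give no counts per region, so depth limits what a missing top peak means. Numbers of LSK+ and LSK- specific regions were 1421 and 1398 with 14567 top peaks per list, 8767 and 8677 within replicate number 1, and 9360 and 9246 within replicate number 2. All deposited peaks gave 1942 LSK+ and 5555 LSK- specific regions, 50% cover gave 3041 and 2625, and requiring no deposited peak in the other cell type, chosen after seeing the data, gave 678 and 2397. Leaving out each library in turn gave 4493 to 7644 LSK+ and 4663 to 7634 LSK- specific regions, as fewer libraries had to agree. The TSS-proximal shares of LSK+ and LSK- specific regions were 12.4% and 7.07% with a TSS within 1 kb, 15.9% and 11.7% ranked by fold, 20.1% and 22.3% with 14567 top peaks, 24.0% and 16.8% with 50% cover, and 13.1% and 12.5% without deposited peaks in the other cell type. With all deposited peaks they were 21.4% and 13.4%. Leaving out each library gave 15.1% to 29.6% for LSK+ and 13.9% to 18.3% for LSK-. All regions had 35.8% with the settings of the report. Their share was not worked out under each alternative, so whether the specific regions stayed below it was not tested. A TSS distance of 1 kb can only lower a share. limma called 0 shared regions in every alternative except the replicate block (509 higher in LSK+ and 261 higher in LSK-), where its paired comparison removes the difference between batches. The GATA share of distal regions, examined after the main values were seen, ranged from 33.5% to 58.9% for LSK- specific and from 9.11% to 12.6% for LSK+ specific regions over 13 alternatives each. The direction of the TSS-proximal share of top peaks was the same in the 4 alternatives run.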

Other observations

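Gata1, on the X chromosome, had no deposited peak within 3 kb of the 5′ end of its annotated gene body in any WT library. Any TSS inside the gene body was not counted, so this does not show that the promoter in use was closed. Within 50 kb of the gene, LSK+ replicates 1 and 2 had 5 and 2 deposited peaks and LSK- replicates 1 and 2 had 7 and 5, and the strongest had percentiles within the whole lists of 95.4, 91.6, 95.1 and 91.5 in that order. Near Ly6a, 7 and 4 deposited peaks lay within 50 kb of the gene in LSK+ and 7 and 4 in LSK-, so the gene encoding the sort marker was not set apart by the number of peaks around it.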
